A study of Arabidopsis thaliana with 3 samples.

Results

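The miR170 and miR171 miRNAs of Arabidopsis thaliana are described here through 4 mature miRNAs, ath-miR170, ath-miR171a, ath-miR171b and ath-miR171c, taken by name from the count table of each library. They are 4 of the 328 miRNAs listed for cdf2, of the 338 listed for dcl1-9 and of the 328 listed for Col, and 374 names are listed over the 3 tables together. Small RNAs were sequenced from seedlings of 22 days in the Col ecotype, grown in soil with 16 h of light and 8 h of dark and without any treatment. The groups were cdf2, a mutant of the cycling DOF transcription factor CDF2, dcl1-9, a mutant of the miRNA-processing enzyme DCL1 whose protein lacks the C-terminal double-stranded RNA-binding domains, and Col, the wild type (WT). The study sequenced cdf2 to ask whether miRNAs depend on CDF2, with dcl1-9 as a control for impaired miRNA processing. Each genotype had 1 library. The spread between seedlings of a genotype is thus unknown, no test was made, and every interval is a 95% interval that covers counting error only. The cdf2 mutant flowers early, so that in these libraries genotype and developmental stage at the same age cannot be told apart. The study also reports northern blots of selected miRNAs, miR170 and miR171 among them, as a check of its sequencing. To lessen the effect of stage, it blotted inflorescences of Col, cdf2 and cdf2 carrying a CDF2-HA transgene. It reports levels similar to those of seedlings, restored by the transgene. Those blots were not analysed here.

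Plant miRNAs are cut by DCL1 from a hairpin within a longer primary transcript and guide ARGONAUTE proteins to nearly complementary mRNAs, which are cleaved. The miR170 and miR171 miRNAs are known for their sites in mRNAs of GRAS-domain transcription factors of the HAIRY MERISTEM type (HAM1, HAM2 and HAM3, also named SCARECROW-LIKE, SCL, or LOST MERISTEMS), which act in shoot meristem maintenance, branching and chlorophyll synthesis. No mRNA was measured in these libraries.

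The mature sequences are shown because they decide which members can be told apart by their reads and which share a seed. They were read from the RefSeq annotation of the TAIR10.1 assembly, 5′ to 3′, with the seed (bases 2 to 8) in capitals.
ath-miR170: uGAUUGAGccgugucaauauc
ath-miR171a: uGAUUGAGccgcgccaauauc
ath-miR171b: uUGAGCCGugccaauaucacg
ath-miR171c: uUGAGCCGugccaauaucacg
All 4 are 21 nt long. ath-miR170 and ath-miR171a share their seed and differ at 2 positions, C12U and C14U, counted from the 5′ end of ath-miR171a with its base first. ath-miR171b and ath-miR171c are identical, so that 4 members hold 3 distinct mature sequences. The sequence of ath-miR171b begins 3 bases further along than that of ath-miR171a, which gives it another seed. Over the 18 bases that both cover, 17 are the same, and the exception is C12U, again counted on ath-miR171a.

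The genome holds each of these sequences in few places. The mature ath-miR170 lies at chr5:26411594-26411614 on the minus strand, in the locus AT5G66045, and occurs once in the genome. The mature ath-miR171a lies at chr3:19073521-19073541 on the plus strand, in AT3G51375. ath-miR171b is at chr1:3961367-3961387 in AT1G11735 and ath-miR171c at chr1:22930095-22930115 in AT1G62035, both on the minus strand, and these are the 2 places where that sequence occurs. None of the 4 overlaps a protein-coding gene.

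The hairpins are shown because they are the substrate of DCL1, the enzyme that is impaired in dcl1-9. The mature miRNA is in capitals, and the coordinates are those of TAIR10.1.
MIR170, chr5:26411580-26411672, minus strand: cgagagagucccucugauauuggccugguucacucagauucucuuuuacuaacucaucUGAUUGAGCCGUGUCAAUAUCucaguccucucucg
MIR171a, chr3:19073434-19073556, plus strand: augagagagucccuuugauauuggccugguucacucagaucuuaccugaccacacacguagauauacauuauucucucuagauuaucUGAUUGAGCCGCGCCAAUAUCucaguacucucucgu
MIR171b, chr1:3961348-3961464, minus strand: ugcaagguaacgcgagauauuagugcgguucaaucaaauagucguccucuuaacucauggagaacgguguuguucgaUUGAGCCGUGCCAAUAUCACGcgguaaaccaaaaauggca
MIR171c, chr1:22930089-22930204, minus strand: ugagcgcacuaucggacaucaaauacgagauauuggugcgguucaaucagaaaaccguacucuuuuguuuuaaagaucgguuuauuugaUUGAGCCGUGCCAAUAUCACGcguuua
All 4 mature miRNAs come from the 3′ arm. The annotated hairpins are 93 nt (MIR170), 123 nt (MIR171a), 117 nt (MIR171b) and 116 nt (MIR171c) long, and the stretch between the annotated arms is 20 nt in MIR170 against 41 to 48 nt in the others. In the structures predicted by RNAfold, the minimum free energy was -39.5 kcal/mol for MIR170, -45.0 for MIR171a, -45.2 for MIR171b and -52.3 for MIR171c, and 19 of the 21 mature bases were paired in each. The annotated 5′ arms of MIR170 and MIR171a have 1 sequence in common, uauuggccugguucacucaga, so that those strands could not be told apart by their reads. The 5′ strands were not analysed here.

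**Figure D1:**
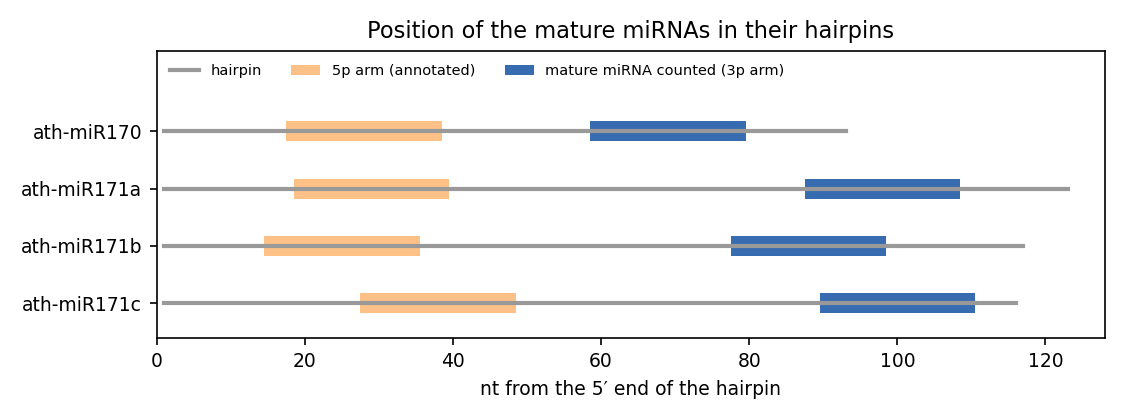
Position of the mature miRNAs along their hairpins, to scale, in nt from the 5′ end of each hairpin. The grey line is the annotated hairpin, the orange block the annotated 5′ arm and the blue block the mature miRNA that was counted, which lies on the 3′ arm in all 4, with 20 nt between the arms in MIR170 and 41 to 48 nt in the others.

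The sites in the target genes are shown because the members differ in how they pair with them. The exact complement of ath-miR171a occurs in 3 protein-coding genes of the genome, HAM1, HAM2 and HAM3, which are transcription factors that keep the shoot meristem active. In each it lies inside the coding sequence, at chr2:18619128-18619148 in HAM1 (AT2G45160), at chr3:22411544-22411564 in HAM2 (AT3G60630) and at chr4:58411-58431 in HAM3 (AT4G00150), all on the minus strand. Bases of the site that form Watson-Crick pairs are in capitals.
HAM1, HAM2 and HAM3, with ath-miR171a: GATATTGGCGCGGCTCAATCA
HAM1, HAM2 and HAM3, with ath-miR170: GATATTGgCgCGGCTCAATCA
HAM1 and HAM2, with ath-miR171b and ath-miR171c: aGgGATATTGGCgCGGCTCAA
HAM3, with ath-miR171b and ath-miR171c: gGgGATATTGGCgCGGCTCAA
ath-miR170 meets the same 21 bases with 2 G-U wobble pairs and no other mismatch. The best site of ath-miR171b and ath-miR171c is moved by 3 bases and has 3 bases outside Watson-Crick pairs, of which 1 is a wobble pair and 2 are mismatches. These are matches of letters and not measured cleavage.

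Levels are given in RPM, reads per 1000000 reads of the library total, with the totals that the authors deposited, 14406060 reads for cdf2, 9443719 for dcl1-9 and 14073145 for Col. One read is worth 0.0694 RPM in cdf2, 0.106 in dcl1-9 and 0.0711 in Col. The counts of all miRNAs add up to 5248526 reads in cdf2, 378685 in dcl1-9 and 8833288 in Col. A read that fits several members may stand in more than 1 row, since how such reads were counted is not given. Nearly equal rows each enter these sums in full, such as miR166b and miR166c, with 36096 and 36102 reads in dcl1-9 and 481629 and 481750 in Col. The sums may therefore exceed the number of distinct reads, and all values per miRNA read below rest on them. A count of 3 reads was taken as the floor. It stands for 0.208 RPM in cdf2, 0.318 in dcl1-9 and 0.213 in Col.

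ath-miR171a, the member with full complementarity to the HAM mRNAs, was the most abundant of the 4 in every library. It had 205 reads in cdf2 and 9 in dcl1-9, against 366 in Col. These counts are 14.2 RPM in cdf2 (interval 12.3 to 16.3) and 0.953 RPM in dcl1-9 (0.436 to 1.81), against 26.0 RPM in Col (23.4 to 28.8). The 3 intervals do not overlap, and Col was highest and dcl1-9 lowest. By reads it ranked 92 among the 268 miRNAs with reads in cdf2, 63 among 150 in dcl1-9 and 77 among 273 in Col, always in the upper part of the list.

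ath-miR171b and ath-miR171c, which share their sequence, stood well below ath-miR171a in cdf2 and in Col. ath-miR171b had 27 reads in cdf2 and 0 in dcl1-9, against 42 in Col, which is 1.87 RPM in cdf2 (1.24 to 2.73) against 2.98 RPM in Col (2.15 to 4.03). ath-miR171c had 28 reads in cdf2 and 0 in dcl1-9, against 42 in Col. The 2 rows differ by 1 read at most and were taken as 1 measurement, although how reads that fit both were counted is not given. If such reads were divided between the rows, the larger count would be too low for this sequence. Its shares and ratios below would then be too low as well. Of the pairs of listed miRNAs with 1 annotated mature sequence and at least 10 reads, 86 of 118 in cdf2 and 84 of 117 in Col had counts within 5% of each other. Nearly equal rows are thus usual for a shared sequence, though not found in every pair. The intervals of cdf2 and Col overlap for this sequence. The interval for the 0 reads in dcl1-9 reaches up to 0.391 RPM.

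ath-miR170, which shares its seed with ath-miR171a, was the rarest of the distinct sequences in cdf2 and in Col. It had 6 reads in cdf2 and 1 in dcl1-9, against 17 in Col. This is 0.416 RPM in cdf2 (0.153 to 0.907) and 0.106 RPM in dcl1-9 (0.00268 to 0.590), against 1.21 RPM in Col (0.704 to 1.93). The intervals of cdf2 and Col overlap, as do those of the 2 mutants, whereas those of dcl1-9 and Col do not.

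**Figure D2:**
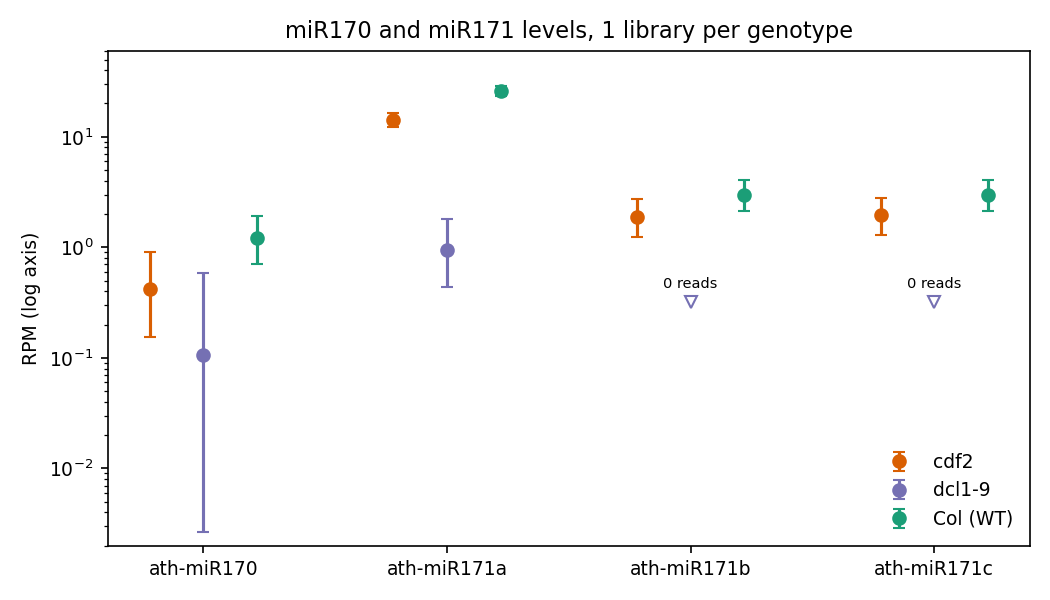
Level of each member in RPM (log axis) in the cdf2 (orange), dcl1-9 (purple) and Col (green) libraries, 1 library each. Points are measured levels, bars are 95% Poisson counting intervals, and open triangles mark 0 reads, drawn at the floor of 3 reads. ath-miR171a stands at 14.2, 0.953 and 26.0 RPM in this order, above the other members in each library.

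The order of the distinct sequences was ath-miR171a, then ath-miR171b and ath-miR171c, then ath-miR170 in cdf2 and in Col, and the intervals of neighbours in this order do not overlap in either library. In dcl1-9 the order below ath-miR171a cannot be given, since 1 and 0 reads do not differ beyond counting error.

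Within the 3 distinct sequences, the make-up was nearly the same in cdf2 and Col. With the larger of the ath-miR171b and ath-miR171c counts taken once, the sequences held 239 reads in cdf2, 10 in dcl1-9 and 425 in Col. ath-miR171a made up 85.8% of these in cdf2 (Clopper-Pearson interval 80.7 to 89.9%) and 90% in dcl1-9 (55.5 to 99.7%), against 86.1% in Col (82.5 to 89.3%). The sequence of ath-miR171b and ath-miR171c made up 11.7% in cdf2 (7.93 to 16.5%) against 9.88% in Col (7.22 to 13.1%). In dcl1-9 it had 0 of the 10 reads (0 to 30.8%). The share of ath-miR170 was 2.51% in cdf2 (0.927 to 5.38%) against 4% in Col (2.35 to 6.33%). Each of these intervals for a mutant overlaps that of Col.

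Ratios between members do not depend on the scaling of a library, and 3 pairs were compared between cdf2 and Col. The ratio of ath-miR170 to ath-miR171a was 0.0293 in cdf2 and 0.0464 in Col, and the odds ratio between the libraries was 0.631 (exact interval 0.200 to 1.71). The ratio of the ath-miR171b and ath-miR171c sequence to ath-miR171a was 0.137 in cdf2 and 0.115 in Col, with an odds ratio of 1.19 (0.688 to 2.03). For ath-miR170 over that sequence the odds ratio was 0.533 (0.153 to 1.64). No change in the balance of the members was detectable at this depth, and over the 3 pairs the intervals still allow odds ratios from 0.153 to 2.03.

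In cdf2 all members were lower than in Col when scaled to the deposited totals. ath-miR171a was 0.547 of its Col level (interval 0.459 to 0.651), ath-miR170 0.345 (0.111 to 0.916), ath-miR171b 0.628 (0.372 to 1.04) and ath-miR171c 0.651 (0.389 to 1.08). The 3 distinct sequences together were 0.549 of Col (0.467 to 0.645). All 4 members passed the minimum of 10 reads in both comparisons. In cdf2, 4 of 4 were, on this scale, lower by at least 1.5-fold, the limit the study applies, where 81 of all 230 miRNAs with at least 10 reads in the 2 libraries together, or 35.2%, were lower by as much. For ath-miR170 and ath-miR171a the interval also lay below 1, as it did for 26.1% of the 230 miRNAs. These members are few and 2 of them are 1 sequence, so that their count is a description.

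The median fold change of the 3 distinct sequences in cdf2 was 0.547, against 0.794 over the 230 miRNAs, which had quartiles of 0.585 and 1.27. Of the other 226 miRNAs, 35 had a lower fold change than ath-miR171a, 11 a lower one than ath-miR170, 68 a lower one than ath-miR171b and 73 a lower one than ath-miR171c. The members therefore lay in the lower part of the distribution. ath-miR170 and ath-miR171a were below its first quartile, and ath-miR171b and ath-miR171c were between it and the median.

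The size of the difference in cdf2 depends on the library scale. All miRNA reads together were 0.580 of Col per library total, close to the members. As a share of all miRNA reads, ath-miR171a stood at 39.1 reads per 1000000 miRNA reads in cdf2 (33.9 to 44.8) and 41.4 in Col (37.3 to 45.9), a ratio of 0.943 (0.791 to 1.12), so that no difference was detectable on this scale. Scaled by the size factors of DESeq2 the ratio was 0.685 (0.574 to 0.814) and with edgeR's TMM normalization 0.618 (0.519 to 0.736), both with intervals below 1. The ath-miR170 ratio was 0.594 on the scale of miRNA reads (0.192 to 1.58), and its interval includes 1 there and with both normalizations. For ath-miR171b the ratio was 0.710 under TMM and 0.786 under DESeq2, and for ath-miR171c 0.736 and 0.815, all with intervals that include 1. The count of members lower by at least 1.5-fold thus went down to 2 of 4 under TMM (ath-miR170 and ath-miR171a) and to 1 of 4 (ath-miR170) under DESeq2 and per miRNA read. The split of all 230 miRNAs moves likewise. Of those past 1.5-fold, 81 were lower and 38 higher with the deposited totals, 58 lower and 47 higher with TMM, 33 lower and 65 higher by DESeq2, and 16 lower and 100 higher per miRNA read.

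**Figure D3:**
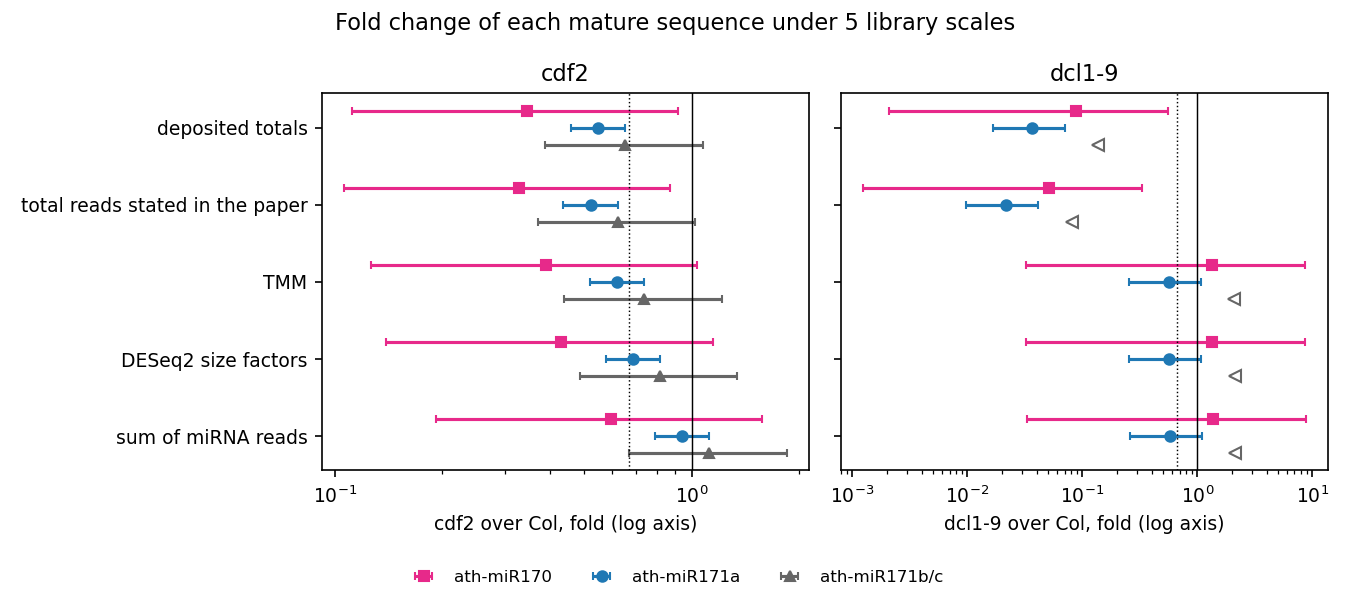
Fold change of the 3 distinct mature sequences in cdf2 (left) and dcl1-9 (right) over Col, on log axes, under 5 library scales. Bars are 95% Clopper-Pearson counting intervals, open triangles mark the upper end of the interval where dcl1-9 had 0 reads, the solid line is no difference and the dotted line 1.5-fold lower. ath-miR171a in cdf2 runs from 0.521 to 0.943 of Col over the scales, and in dcl1-9 from 0.0216 to 0.574.

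In dcl1-9 the members were far below Col per library total, with 10 reads left over the 3 distinct sequences. ath-miR171a was 27.3-fold lower than in Col (fold change 0.0366, interval 0.0166 to 0.0703). The sequence of ath-miR171b and ath-miR171c, with 0 reads against 42 in Col, was 9.39-fold lower when the floor of 3 reads is put in place of 0. The counting interval allows a fold change of up to 0.137, which is 7.31-fold lower. ath-miR170, with 1 read against 17, had a fold change of 0.0877 with a wide interval of 0.00210 to 0.559. The 3 sequences together were 28.5-fold lower (fold change 0.0351, 0.0167 to 0.0651). All 4 members were past 1.5-fold with the interval below 1, where 98.4% of the 188 miRNAs listed in both libraries with at least 10 reads were lower by that much and 96.8% also had the interval below 1. The count of members therefore does not set them apart from the other miRNAs. All 4 members reach the minimum of 10 reads through their Col reads. A miRNA without reads in dcl1-9, as 62 of the 188 were, can only be called lower. These counts and shares thus follow in part from the filter.

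With counts under 3 reads set to 3, the median log2 fold change in dcl1-9 was -3.65 over the 188 miRNAs and -3.23 over the 3 distinct sequences. On counts without this floor, 108 of the other 184 miRNAs had a lower fold change than ath-miR171a and 134 a lower one than ath-miR170. For ath-miR171b and ath-miR171c the number was 0, since no fold change can be below 0. They shared their 0 reads with others among the 62 of all 188 that had no reads in dcl1-9. With the floor, their log2 fold change was -3.23, above the median, with ath-miR171a at -4.77 and ath-miR170 at -1.93. The places of the members in the distribution thus depend on how counts under 3 are treated. As a share of all miRNA reads, ath-miR171a stood at 23.8 reads per 1000000 miRNA reads in dcl1-9 (10.9 to 45.1) against 41.4 in Col, a ratio of 0.574 (0.260 to 1.10). The 10 reads of the 3 sequences together gave a ratio of 0.549 on that scale (0.261 to 1.02), which includes 1. The ath-miR170 ratio was above 1 on it, at 1.37 (0.0328 to 8.76), and rests on 1 read in dcl1-9. Scaled by DESeq2 or TMM, the ath-miR171a ratio was 0.565 (0.256 to 1.08) or 0.562 (0.255 to 1.08), and on these scales 112 and 113 of the 188 miRNAs were at least 1.5-fold lower and 50 higher. On these scales and per miRNA read, 3 of 4 members were lower by that much, and 2 of these, ath-miR171b and ath-miR171c, rest on 0 reads with an interval that includes 1.

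**Figure D4:**
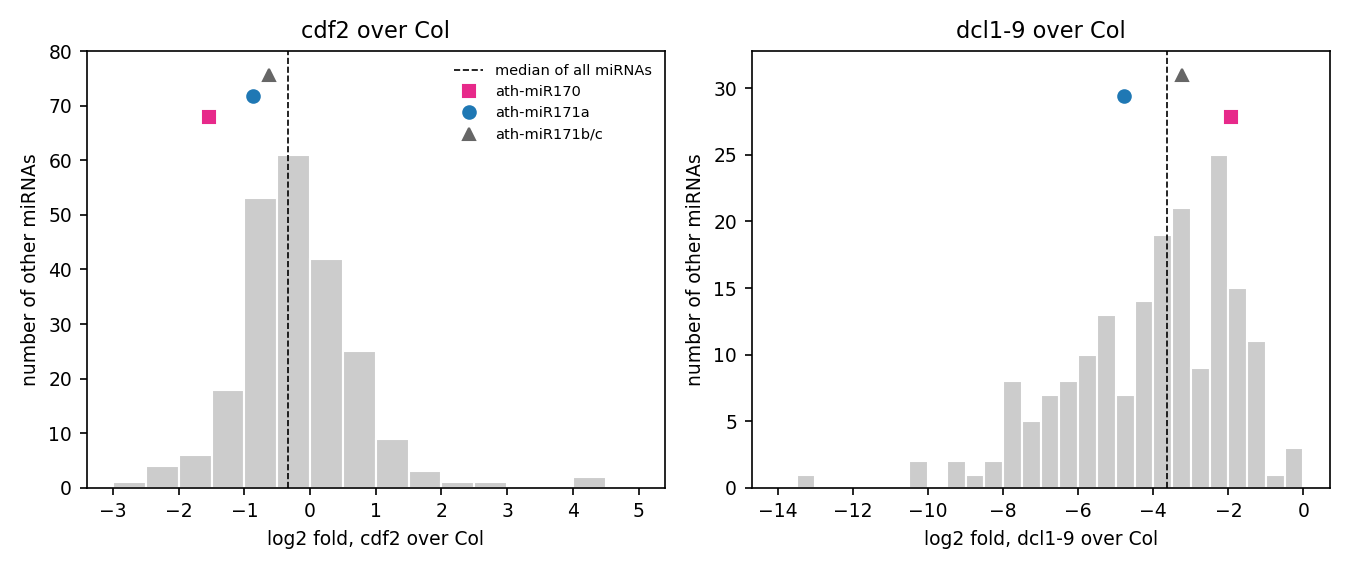
Distribution of the log2 fold change of the other miRNAs with at least 10 reads in the 2 libraries together, cdf2 over Col (left, 226 miRNAs) and dcl1-9 over Col (right, 184 miRNAs), with the deposited totals and counts under 3 set to 3. The dashed line is the median of all miRNAs tested (-0.33 and -3.65) and the symbols are the 3 distinct sequences, all left of the median in cdf2 and on both sides of it in dcl1-9.

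The mutants were also set beside each other. The 3 sequences together were 15.7-fold lower in dcl1-9 than in cdf2 (fold change 0.0638, interval 0.0302 to 0.119), and ath-miR171a 14.9-fold lower (0.0670, 0.0302 to 0.130). For ath-miR170 the interval of 0.00553 to 2.10 includes 1. Both mutants are compared with the same Col library, so that an error in Col would move both comparisons.

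Among miRNAs with Col counts near that of ath-miR171a, the 2 next above were miR156g (337 reads in cdf2, 6 in dcl1-9 and 445 in Col) and the star strand of miR169g (566 in cdf2 and 441 in Col), and the 2 next below were miR5642a (274, 161 and 362, in the order cdf2, dcl1-9 and Col) and miR824 (314, 30 and 361). The cdf2 count of ath-miR171a, 205, was below that of all 4. Around the count of 42 that ath-miR171b and ath-miR171c had in Col, miR866-5p had 33 reads in cdf2, 0 in dcl1-9 and 42 in Col. The next above it in Col were miR5023 (29, 0 and 44, in the same order) and miR5655 (74, 4 and 45), and the next below miR400 (36, 2 and 40) and, with equal counts, miR395b, miR395c and miR395f (69, 3 and 37 each). The cdf2 counts of ath-miR171b and ath-miR171c, 27 and 28, were below those of all 7, and the dcl1-9 counts of the 7 were 4 or fewer. The 7 differ in their Col counts, and by fold change in cdf2 miR5023, at 0.644, lay between ath-miR171b (0.628) and ath-miR171c (0.651). The 3 miR395 rows have equal counts in every library and may not be separate measurements. Around the ath-miR170 count of 17 in Col stood 11 miRNAs with 16 to 19 reads in Col. In cdf2, 4 of them had fewer than the 6 reads of ath-miR170, namely miR398a (3 reads), miR398b and miR398c (5 each) and miR399d (2), and 7 had more, namely miR845a (8), miR2937 (10), miR779.2 and miR5629 (13 each), miR1886.1 (19), miR5666 (23) and miR5647 (24). In dcl1-9 the 11 had 0 to 3 reads, against 1 read of ath-miR170.

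The profile over the 3 libraries most like that of the summed members was that of miR165, a regulator of HD-ZIP III transcription factors in leaf polarity. Likeness was the Euclidean distance between log2 RPM values with 1 read added, each centred on its own mean over the 3 libraries, among 106 miRNAs with at least 100 reads in Col. miR165b came first, at a distance of 0.15, with fold changes of 0.515 in cdf2 and 0.0333 in dcl1-9, and miR165a, a near copy in its counts, second, at 0.16. The third was miR408, which targets mRNAs of copper proteins, at 0.25, with fold changes of 0.695 in cdf2 and 0.0433 in dcl1-9. The dcl1-9 fold change of the summed members, 0.0351, rests on 10 reads and has an interval of 0.0167 to 0.0651. The dcl1-9 fold changes of miR165b, miR165a and miR408 all lie inside it, so that counting error in dcl1-9 limits the order of nearness. With 3 libraries the likeness is a description.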

How the data were processed

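Per the labels and the study's methods, the authors trimmed small RNA reads, mapped them with Bowtie to miRBase 15 hairpins and assigned them to miRNAs of database version 16. The authors deposited these values as raw counts, 1 table per library. The authors also deposited a paired table for each mutant with counts, RPM values equal to the counts over a library total in the table (0 reads written as 0.01 RPM in the dcl1-9 table), and their own fold changes and p-values, which were not used. The paired counts equal those of the library tables for every miRNA listed in both. For Col in the dcl1-9 paired table, this covers 172 of 195 names. How reads that fit several members were counted is not given in the sources used here, nor is the Bowtie version. The notes name TAIR10, and sequences were read from RefSeq on TAIR10.1.

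Here counts were scaled by those deposited totals. The scale of the total reads in the study's text was an alternative, since the genome-matched shares given with it do not follow from it. The other alternatives were the sum of miRNA reads, DESeq2 1.42.0 size factors, edgeR 4.0.16 TMM, 1 read added, all 4 members summed, and no minimum count. For fold changes, Clopper-Pearson intervals of 95% were used (SciPy 1.17.1), for levels Poisson intervals, and for ratios between members conditional odds ratios. Only the fold change intervals were checked, on simulated Poisson counts, the counting error they assume. They covered the true fold change in 96.2% of cases for cdf2 and 96.5% for dcl1-9. Reads carry no molecular identifiers, so that intervals and the floor of 3 reads cover counting error only. Libraries were joined by exact name, with 292 names shared by dcl1-9 and Col. Hairpins were folded with RNAfold 2.7.2. Beyond the members, the text names those with an equal Col count, the 2 next above and the 2 next below each member, with all ties, and the 3 nearest profiles. The members, lists and limits were chosen with earlier results of these data known.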

Additional observations from a re-analysis of the deposited data

How the results depend on the processing

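With 1 library per genotype, no replicate could be left out, and each scale multiplies all fold changes of a library by 1 factor. Against the deposited totals, log2 fold changes moved in cdf2 by -0.07 with the total reads of the study's text, 0.18 under TMM, 0.32 under DESeq2 and 0.78 per miRNA read, and in dcl1-9 by -0.76, 3.94, 3.95 and 3.97. The fold change of the 3 distinct sequences in cdf2, 0.549 with the deposited totals, was 0.687 under DESeq2 and 0.946 per miRNA read. In dcl1-9 it was 0.0351, against 0.549 per miRNA read, 0.541 under DESeq2 and 0.538 under TMM. The number of miRNAs at least 1.5-fold lower in cdf2, 81, was 16 per miRNA read and 33 under DESeq2. In dcl1-9 it was 185, against 112 per miRNA read, 112 under DESeq2 and 113 under TMM. The direction turned for ath-miR171b (1.08) and ath-miR171c (1.12) in cdf2 per miRNA read, and for ath-miR170 in dcl1-9 per miRNA read (1.37), under DESeq2 (1.35) and under TMM (1.34), each with an interval that includes 1. Over the single members, 18 of 20 alternative values in cdf2 and 17 of 20 in dcl1-9 stayed below 1. These counts enter ath-miR171b and ath-miR171c separately, although they are 1 sequence. In dcl1-9 their 0 reads give a fold change of 0 on every library scale, so that scaling could not move them above 1. Adding 1 read or summing all 4 members moved no value outside its counting interval. The depth limits ath-miR170 most, with 6 reads in cdf2 and 1 in dcl1-9.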
